A study of Sus scrofa with 57 samples.

Results

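The genes described here are 9 that write, erase or read methylated cytosine in DNA: the methyltransferases DNMT1, DNMT3A and DNMT3B, the dioxygenases TET1, TET2 and TET3, and the readers UHRF1, MBD2 and MBD3. They are 9 symbols, carried by 10 of the 25285 gene identifiers with FPKM values (sequenced fragments relative to transcript length and library size), because TET1 has 2 entries. The gene names of the tables gave 7 of the symbols. DNMT1, which has no name there, and DNMT3A, which is listed as DNMT3A2, were found by their Ensembl identifiers. All mDNAcap and RRBS regions in these loci or within 50000 bases of them were examined as well.

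The samples were mature adipocytes of retroperitoneal fat from lean and obese pigs, F2 animals of a cross between Duroc pigs and Göttingen minipigs chosen from the extremes of adiposity in the UNIK population. The cells were freed by collagenase and left to float, and the labels name no treatment and no engineered allele for either group. Ages were not given per pig in the labels. RNAseq covered 5 lean and 5 obese pigs, all male, and 1 obese pig, pig-572, had 2 libraries that were averaged. The second of them was assigned by its title, while its description carries another number. In mDNAcap, fragments bound by a methyl-CpG-binding domain were sequenced, and the deposited comparison held 11 libraries of each group. Among the 11 libraries in its lean group was that of pig-411, which the sample labels call obese. The header of the comparison lists the pigs of each group, but the value columns carry no animal names and were not matched to that list. The header's scaling constant and mean read count of each library were paired with the value columns by position. The pig names were not, so pig-411 was not singled out and stayed in the lean group. Each library was left out in turn instead. In RRBS, bisulfite sequencing of MspI fragments, only group means were deposited. The sample labels gave 13 obese and 10 lean RRBS pigs, with pig-411 again among the obese. In which group it entered the deposited means is not known. The paper's methods list boars and sows in both groups, so mDNAcap and RRBS covered both sexes. Sex did not enter the mDNAcap fit.

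DNA methylation is set on cytosines of CpG dinucleotides by DNMT3A and DNMT3B and copied after replication by DNMT1, which UHRF1 brings to hemimethylated sites. TET enzymes oxidise methylcytosine, and the products are lost by dilution or are cut out by TDG and replaced by base excision repair. MBD2 binds methylated CpG, while the related MBD3 binds it weakly in mammals, and each can be part of the deacetylase and remodelling complex NuRD. Mature adipocytes do not divide.

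The adipocyte and other cell markers were looked at first. All 4 adipocyte markers that matched an entry were present in every pig, with PLIN1, which coats the lipid droplet, between 231 and 439 scaled FPKM and CIDEC, which enlarges it, between 314 and 558. The summed level of these 4 markers was 807 to 1023 in lean and 886 to 1169 in obese pigs. Leukocyte markers summed to 3.11 to 6.36 in lean and 3.61 to 6.26 in obese pigs (8 of 10 symbols matched), with CD163 listed at 0 in every pig. Endothelial markers (6 of 7 matched) summed to 1.54 to 12.7 in lean and 3.56 to 9.15 in obese pigs. Fibroblast and preadipocyte markers (7 of 8 matched) summed to 227 to 664 in lean and 249 to 630 in obese pigs, most of it COL3A1, a collagen. Mesothelial markers (5 of 5 matched) summed to 0.347 to 0.809 in lean and 0.305 to 1.19 in obese pigs, and markers of dividing cells (12 of 14 matched) to 0.875 to 1.91 in lean and 0.720 to 1.54 in obese pigs. The ranges of the groups overlapped for each of the 6 lists. Within the fibroblast list, the median log2 difference of the 5 tested entries was −0.44 and none had an unadjusted limma p under 0.05, with means of 59.9 in lean and 41.7 in obese pigs for DCN (decorin) and 17.8 and 11.8 for the first of 2 entries of COL1A1. The part of such cells in the results below was not tested. Among markers tested, 1 had an unadjusted limma p under 0.05, LEP, which encodes leptin (mean 29.1 in lean and 119 in obese pigs).

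The levels of the 9 genes covered a wide range. Averaged over the 10 pigs, FPKM after scaling was 20.6 for the TET1 entry on chromosome 14, 12.3 for MBD3, 8.54 for MBD2, 1.78 for DNMT3A, 1.69 for TET2 and 1.07 for DNMT1. These 6 entries had a mean of at least 1 and were tested. The other 4 entries lay lower, at 0.385 for the second TET1 entry, 0.0937 for DNMT3B, 0.0607 for TET3 and 0.0106 for UHRF1. In this order, MBD2 was above DNMT3A, TET2 above DNMT1 and DNMT1 above the second TET1 entry in 10 of 10 pigs. DNMT3A was above TET2 in 6 of 10 pigs and DNMT3B above TET3 in 7 of 10, so the order of these neighbours varied between pigs. MBD3 was above MBD2 in 8 of 10 pigs. On the same FPKM scale, MBD3 exceeded 72.1% of all genes tested, MBD2 63.5% and DNMT1 1.94%.

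**Figure D1:**
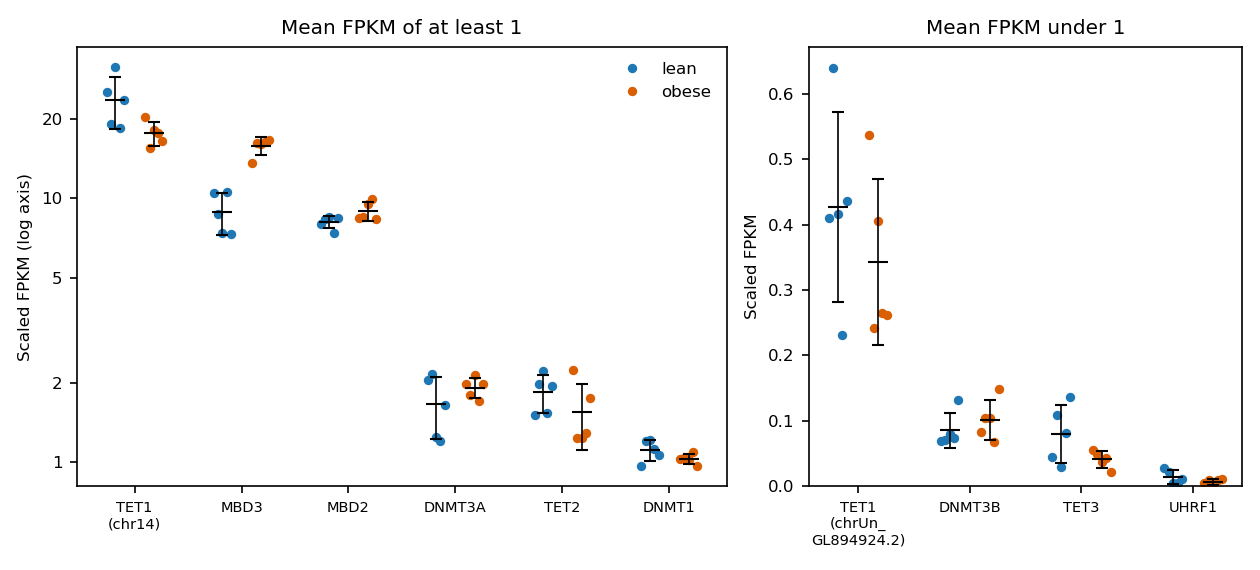
Scaled FPKM of each entry in 5 lean (blue) and 5 obese (orange) pigs, 1 point a pig, with the group mean and SD as black bars. The left panel (log axis) holds the entries with a mean of at least 1, and the right panel (linear axis from 0) those below it. MBD3 is the entry whose groups do not overlap, with lean pigs at 7.30 to 10.5 and obese pigs at 13.6 to 16.7.

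MBD3 was higher in the obese pigs, by a difference that missed the adjusted threshold. The gene (ENSSSCG00000013435, Sscrofa10.2 chr2:78157105-78165835) encodes a NuRD subunit. Scaled FPKM was 10.5, 8.68, 7.35, 10.5 and 7.30 in lean pig-402, pig-407, pig-413, pig-525 and pig-577. In obese pig-433, pig-473, pig-524, pig-529 and pig-572 it was 13.6, 16.2, 16.0, 16.4 and 16.7. Each obese pig was thus above each lean pig. The lean mean was 8.87 ± 1.60 and the obese mean 15.8 ± 1.23 (SD, n = 5 each), a ratio of 1.78. On the scale of log2(scaled FPKM + 1), the difference was 0.78 ± 0.12 (SE), with a 95% interval of 0.51 to 1.04. The limma p was 5.8e-05, the 11th lowest of 10196 genes, and the Benjamini-Hochberg adjusted p was 0.0511. A two-sided exact permutation test, with all 252 ways to split the pigs, gave 0.00794, the smallest p that 5 against 5 pigs can give. Of all genes tested, 421 (4.13%) had groups that did not overlap, so MBD3 was 1 of many. The 2 libraries of pig-572 gave 15.8 and 17.6.

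The MBD3 difference kept its sign in every alternative run, between 0.72 and 0.84 on the log2 scale. Its adjusted p ranged from 0.0211 to 0.201 over them. Without lean pig-402 it was 0.0362, and with both libraries of pig-572 counted it was 0.0211, a setting in which 162 genes passed in place of 1. It was above the threshold in all other alternatives.

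MBD2 (ENSSSCG00000004528, chr1:113952131-114064057), the reader of methylated CpG in a separate NuRD complex, was near one level in all pigs. It was 8.0, 8.35, 8.49, 7.4 and 8.41 in the lean pigs and 8.41, 8.52, 9.50, 9.96 and 8.31 in the obese pigs, each in the order just used. The groups overlapped, although 3 obese pigs were above every lean pig. The limma difference was 0.12 ± 0.08 (SE) on the log2 scale, with an interval of −0.055 to 0.30 and an adjusted p of 0.406 (exact permutation p = 0.0873).

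UHRF1 (ENSSSCG00000013517, chr2:74678784-74711249) was close to 0 in both groups. It ran from 0.0042 to 0.0287 in lean pigs and from 0 to 0.0106 in obese pigs, and pig-524 was the one listed at 0. The bounds that the authors' estimates carry were wide here, with a median half-width of 121% of the value, against 6.0% for MBD3.

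Of the writers, DNMT1 (ENSSSCG00000013659, chr2:69309460-69357860), the maintenance enzyme, was low and even. Its values were 0.962, 1.2, 1.21, 1.12 and 1.06 in the lean pigs and 1.03, 1.04, 1.02, 1.09 and 0.967 in the obese pigs. The obese values lay within the lean range. The difference was −0.057 ± 0.076 (SE) on the log2 scale, adjusted limma p = 0.692, with an interval of −0.23 to 0.11 (exact permutation p = 0.143).

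DNMT3A (ENSSSCG00000029413, chr3:120640567-120657717) was the most abundant of the 3 DNA methyltransferases by FPKM. It was 2.05, 2.16, 1.25, 1.2 and 1.64 in the lean pigs and 1.97, 1.79, 2.13, 1.69 and 1.97 in the obese pigs. The lean pigs varied more and spanned the whole obese range. The difference was 0.14 ± 0.12 (SE), adjusted limma p = 0.500, with an interval of −0.11 to 0.40 (exact permutation p = 0.278). Without lean pig-525 the difference was 0.081. DNMT3B (ENSSSCG00000007252, chr17:41298141-41322901), the second de novo enzyme, was at 0.0696 to 0.132 in lean and 0.0682 to 0.149 in obese pigs. Only with the filter on low values taken away did DNMT3B enter the fit, and its adjusted limma p was then 0.679.

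Among the erasers, the TET1 entry on chromosome 14 (ENSSSCG00000010241, chr14:77827790-77828785) was lower in obese pigs by a difference that did not pass after adjustment. It was 25.4, 19.1, 31.5, 18.5 and 23.6 in the lean pigs and 20.3, 15.6, 18.1, 17.6 and 16.5 in the obese pigs. All obese pigs but pig-433 were below every lean pig. The means were 23.6 ± 5.28 and 17.6 ± 1.81 (SD, n = 5 each), and the log2 difference was −0.38 ± 0.15 (SE) with an interval of −0.71 to −0.054. The unadjusted limma p was 0.0265 and the adjusted p 0.202 (exact permutation p = 0.0397). This entry spans 996 bases only.

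The second TET1 entry (ENSSSCG00000030141), on the unplaced scaffold GL894924.2, spans 5028 bases and was at 0.231 to 0.640 in lean and 0.241 to 0.538 in obese pigs. The entries of TET1 therefore stood 20.6 against 0.385 in mean FPKM, and which of them, if either, carries the level of the TET1 transcript was not tested. How alike the entries are in sequence, and whether they share reads, was not tested either, so the TET1 values are uncertain.

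TET2 (ENSSSCG00000009157, chr8:125011420-125136835) was 1.51, 1.97, 2.21, 1.53 and 1.95 in the lean pigs and 2.23, 1.24, 1.23, 1.29 and 1.74 in the obese pigs. In obese pig-473, pig-524 and pig-529 it was below every lean pig, and in pig-433 it was above every lean pig. The difference was −0.16 ± 0.13 (SE), adjusted limma p = 0.479, with an interval of −0.44 to 0.12 (exact permutation p = 0.198). Without obese pig-433 it was −0.25. TET3 (ENSSSCG00000008292, chr3:72080815-72176994) lay between 0.0297 and 0.136 in lean and between 0.0214 and 0.0560 in obese pigs, with overlap. In the fit with no filter, its adjusted limma p was 0.373.

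Of the 6 entries tested, 0 passed the adjusted threshold of 0.05 in limma, and 2 (TET1 on chromosome 14 and MBD3) had an unadjusted p under 0.05. Over all genes tested, 1 of 10196 (0.00981%) passed the adjusted threshold and 2090 (20.5%) had an unadjusted p under 0.05. In these bulk libraries, fewer cells of a type and less RNA per cell cannot be told apart.

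For each entry tested, the genes with the most similar pattern over the 10 pigs were found by Pearson's r of log2(scaled FPKM + 1). For MBD3 they were LZTR1 (r = 0.97) and LEP (r = 0.96). For the chromosome 14 entry of TET1 they were RHOU (r = 0.96) and NARG2 (r = 0.95), and for TET2 they were ZKSCAN1 (r = 0.96) and TNKS (r = 0.94). For DNMT1 they were ENSSSCG00000025437 (r = 0.96), which has no name, and WDR3 (r = 0.92). For DNMT3A they were ALDH4A1 and RAP2C (r = 0.93 each), and for MBD2 LMF1 (r = 0.90) and CYP39A1 (r = 0.89). These are the highest of 10195 genes each over points that share group and library, and they are given as a description.

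Other genes of DNA methylation were read from 7 lists, of which 64 entries were tested. None passed the adjusted limma threshold, the lowest adjusted p being 0.142. At an unadjusted p under 0.05, 6 were higher and 4 lower in obese pigs, or 15.6% against 20.5% of all genes tested. The median log2 difference was −0.014, beside 0.0053 over all genes tested.

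The methyl donor cycle, which makes S-adenosylmethionine and clears its product, held 12 tested entries, 2 with an unadjusted p under 0.05 in each direction. MAT2A, the synthetase of S-adenosylmethionine, was 9.05 to 14.4 in lean and 14.6 to 28.6 in obese pigs. Its log2 difference was 0.63 ± 0.19 (SE) with an adjusted limma p of 0.142 (exact permutation p = 0.00794). This exact p is the smallest possible here and is shared by all genes whose groups do not overlap, 4.13% of those tested. AHCYL2, a homologue of the hydrolase of S-adenosylhomocysteine, had means of 8.91 in lean and 12.5 in obese pigs (adjusted limma p = 0.230). GNMT, which uses up S-adenosylmethionine by methylating glycine, had means of 1.7 and 1.06 (adjusted limma p = 0.234).

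NuRD partners of MBD2 and MBD3 did not move one way: of 11 tested, 5 had a higher and 6 a lower fitted level in obese pigs, with 1 in each direction at an unadjusted p under 0.05. HDAC2, a histone deacetylase, was 5.97 to 9.01 in lean and 4.88 to 6.32 in obese pigs (log2 difference −0.36, adjusted limma p = 0.153). GATAD2A, a scaffold of the complex, was 1.29 to 2.33 in lean and 2.13 to 2.84 in obese pigs (log2 difference 0.25, adjusted limma p = 0.234). The histone-binding RBBP4 had a log2 difference of −0.21 and HDAC1 one of 0.24, with adjusted limma p of 0.282 and 0.333.

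In excision repair after TET, 11 entries were tested. TDG, the glycosylase that removes oxidised methylcytosine, had means of 2.32 ± 0.447 in lean and 1.65 ± 0.296 in obese pigs (SD, n = 5 each), with an adjusted limma p of 0.183. LIG3, a DNA ligase, had means of 1.28 and 1.63 (adjusted limma p = 0.227). The stress-inducible GADD45B and GADD45G varied widely, from 37.5 to 130 and from 84.8 to 279 in lean pigs and from 16.0 to 70.2 and from 71.0 to 137 in obese pigs. Their adjusted limma p was 0.272 and 0.289.

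Among CXXC proteins, which bind unmethylated CpG, CXXC5 had the lowest p of 4 tested, with 0.313 to 1.38 in lean and 1.15 to 2.27 in obese pigs (log2 difference 0.53, adjusted limma p = 0.163). CXXC1, which guides a histone methyltransferase to CpG islands, had a log2 difference of −0.22 (adjusted limma p = 0.282). KDM2A and KMT2A had differences of −0.034 and −0.0095, and both turned sign in some alternatives. Of the other partners of maintenance and methyltransferases, 4 were tested: QSER1, which protects sites from methylation, had a log2 difference of 0.25 (adjusted limma p = 0.242), TRDMT1, a methyltransferase of transfer RNA, −0.26, PCNA, the replication clamp, 0.18 and USP7, a deubiquitinase, 0.062. Of 9 other methyl-CpG readers and related proteins, none had an unadjusted p under 0.05. The log2 differences were −0.28 for BAZ2B, 0.16 for MBD5, 0.16 for BAZ2A and 0.057 for ZBTB38. Of 13 genes of 2-oxoglutarate supply, which feeds the TET enzymes, none had one either, and OGDH (0.46), IDH3B (−0.20), SDHB (−0.23) and IDH2 (−0.24) led by p.

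**Figure D2:**
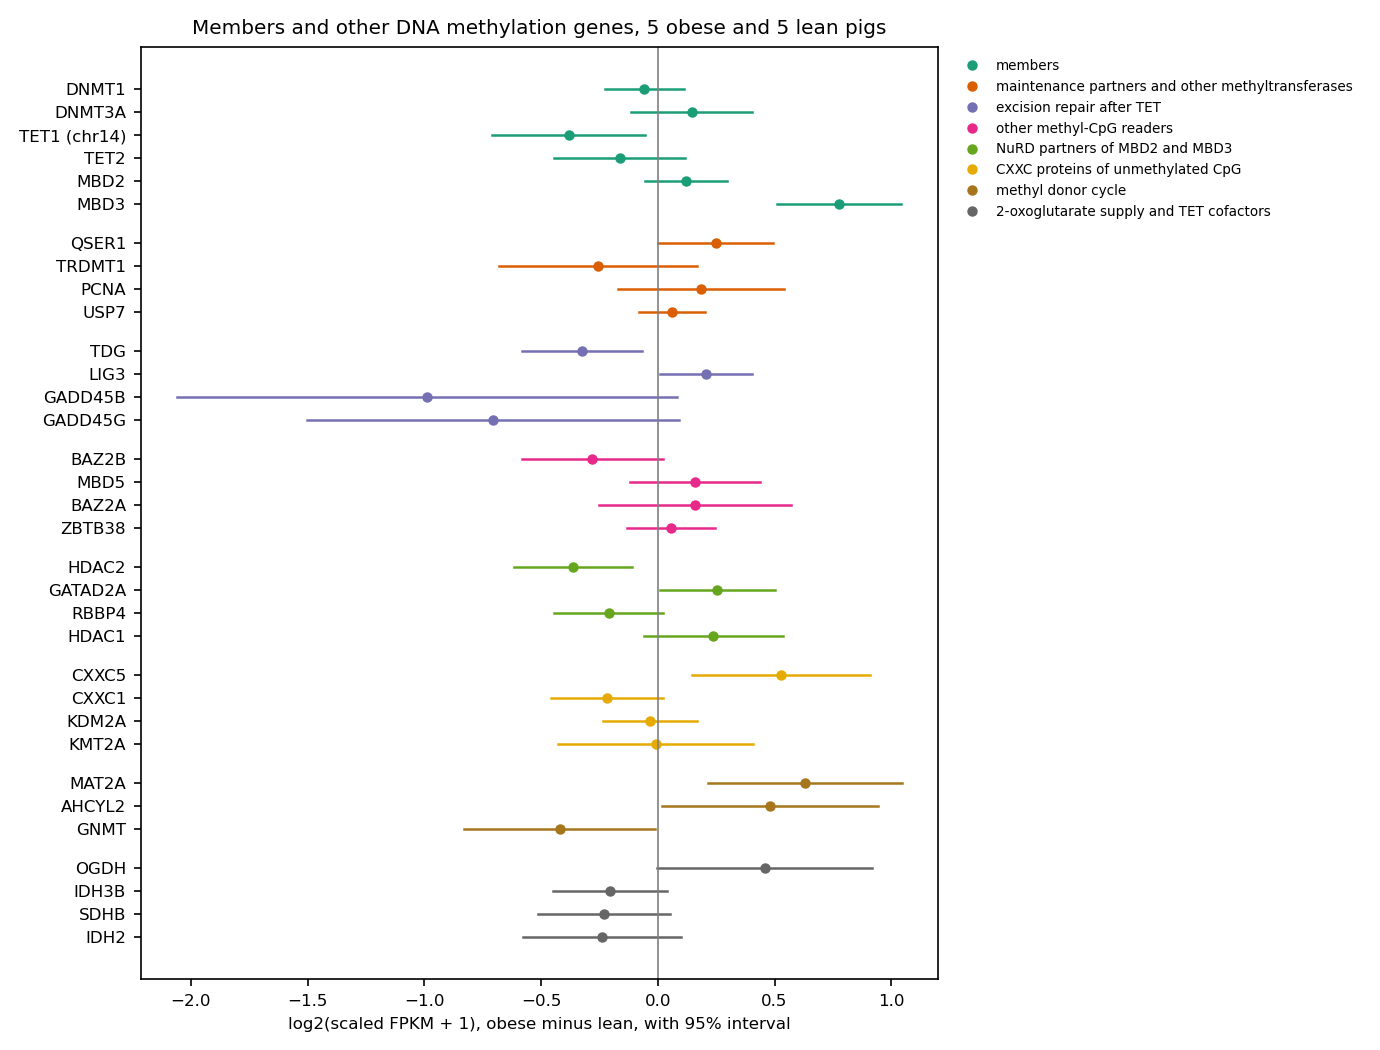
Difference between 5 obese and 5 lean pigs on the scale of log2(scaled FPKM + 1), from limma, for the 6 entries tested and the genes named from each list (points, with 95% intervals as lines, coloured by list). MBD3 has the interval farthest above 0, from 0.51 to 1.04. None of the genes drawn passed the adjusted threshold.

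Regions that the authors' mDNAcap comparison lists as different were found near 2 of the genes, DNMT3A and MBD2. By loci, 2 of the 10 entries had a region within 50000 bases, beside 28.4% of all loci. DNMT3A had 5 regions, a number reached by 374 loci (1.48%). No mDNAcap region lay that near to DNMT1, DNMT3B, UHRF1, MBD3 or any TET entry. The regions were chosen by the authors for a difference in these same animals, so the tests below are not independent evidence of one. In limma over the libraries, all 6 passed the adjusted threshold, as did 96.2% of the 7401 regions, so their passing is no particular property of these loci. DNMT3A was the nearest annotated gene of its 5 regions, and MBD2 of its 1. The DNMT3A entry, listed as DNMT3A2, spans 17151 bases, and inside, outside and distance refer to this entry. Whether the regions outside it lie in a longer form of the gene was not tested.

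The region inside the DNMT3A locus (chr3:120647801-120648800) held more captured DNA in obese libraries. Its normalized read count, in the authors' scaling, ran from 16.7 over a median of 26.4 to 34.9 in obese libraries. In lean libraries it ran from 8.79 over 16.6 to 30.3. The ranges overlapped, but all 11 obese libraries were above the lean median. The mean was 25.6 ± 6.23 against 17.7 ± 5.54 (SD, n = 11 each), a ratio of 1.44, and the difference on the scale of log2(normalized count + 1) was 0.52 ± 0.17 (SE). The adjusted limma p was 0.0098 (permutation p = 0.00488, 100000 resamples).

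The next region above the locus (6384 bases away, chr3:120664101-120665100) was also higher in obese libraries. Counts ran from 15.6 over a median of 20.2 to 37.8 in obese and from 10.5 over 14.2 to 22.0 in lean libraries. Again all 11 obese libraries exceeded the lean median. The means were 23.1 ± 7.64 and 15.7 ± 3.82 (SD, n = 11 each), with a log2 difference of 0.51 ± 0.17 (SE) and an adjusted limma p of 0.0105 (permutation p = 0.00385).

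The other 3 regions around DNMT3A were lower in obese libraries. Below the locus (2767 bases away, chr3:120636801-120637800), counts ran from 1.49 over a median of 7.33 to 21.8 in obese and from 6.59 over 13.2 to 24.7 in lean libraries, and 1 obese library was above the lean median. The log2 difference was −0.72 ± 0.28 (SE), adjusted limma p = 0.0187. Above the locus (26184 bases away, chr3:120683901-120684900), counts ran from 4.89 over 8.25 to 13.5 in obese and from 7.88 over 12.9 to 19.9 in lean libraries, with a log2 difference of −0.65 ± 0.19 (SE) and an adjusted limma p of 0.0085. Farther above it (38584 bases away, chr3:120696301-120697400), counts ran from 0 over 4.95 to 14.3 in obese and from 7.86 over 12.4 to 17.5 in lean libraries, with a log2 difference of −1.10 ± 0.33 (SE) and an adjusted limma p of 0.0085. Going up the chromosome across the DNMT3A locus, the regions were thus lower, higher, higher, lower and lower in obese libraries.

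Near MBD2, the region 5831 bases below the locus (chr1:113945001-113946300) was lower in obese libraries. Counts ran from 2.91 over a median of 13.3 to 18.1 in obese and from 11 over 18.2 to 32.3 in lean libraries, and no obese library was above the lean median. The means were 12.4 ± 5.42 and 20.6 ± 6.96 (SD, n = 11 each). The log2 difference was −0.78 ± 0.25 (SE), adjusted limma p = 0.0094 (permutation p = 0.00659).

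**Figure D3:**
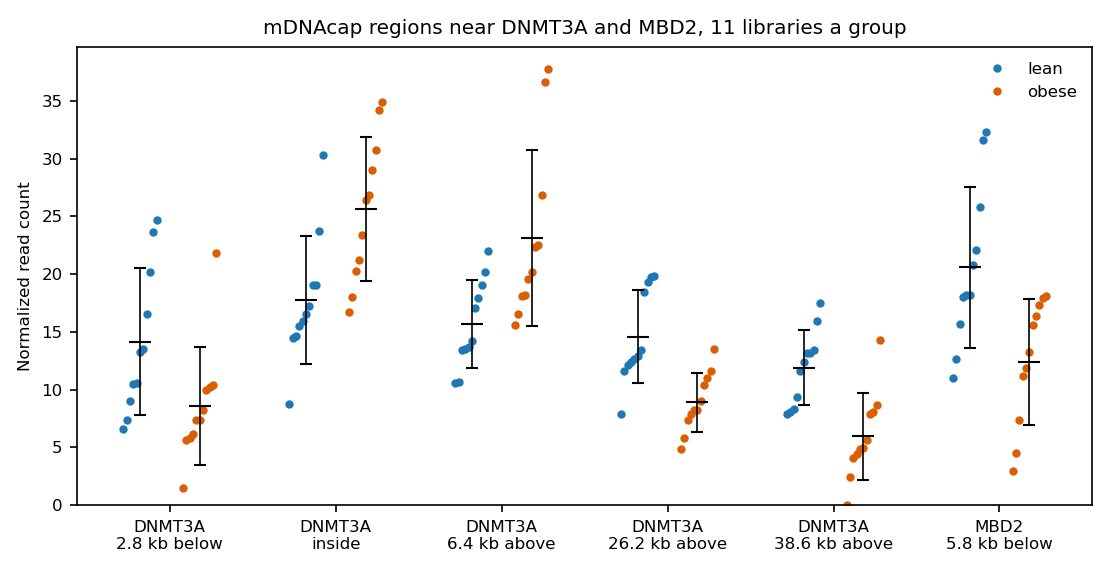
Normalized read count of 11 lean (blue) and 11 obese (orange) libraries at the 6 mDNAcap regions within 50 kb of DNMT3A or MBD2, sorted within each group, with mean and SD as black bars. The groups overlap at every region. The region inside DNMT3A and the one 6.4 kb above it are higher in obese libraries and the other 4 are lower.

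The reads behind these values were few. Multiplied back by each library's scaling constant, a library held between 0 and 67.9 reads at a region, and the sum over the 11 libraries of a group was 99.0 to 313 reads. The library scaling also differed between the groups: the mean read count per 1000-base bin divided by the scaling constant was 1.59 ± 0.417 in obese and 1.94 ± 0.350 in lean libraries (SD, n = 11 each, permutation p = 0.0465).

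The directions at the 6 regions held under each of 4 other ways of scaling or fitting, but the calls did not. With scaling by the median of ratios over the regions, 3 of the 6 passed, the region inside DNMT3A, the one 6384 bases above it and the one 38584 bases above it. With scaling by the mean read count per bin, these 3 passed as well. With the read count per bin as a covariate, 0 passed in limma and 3 had an unadjusted p under 0.05, with adjusted p from 0.0519 to 0.278. The median of all 7401 regions itself moved from −0.67 to −0.37, −0.39 and −0.50 on the log2 scale under these 3 settings. Among regions called over the whole table, the share lower in obese libraries was 71.8% with the authors' scaling, 26.8% with the median of ratios, 34.5% with the mean read count per bin and 64.9% with the covariate. By the sign of the fitted difference over all 7401 regions, called or not, it was 70.8%, 70.2%, 70.3% and 70.5% in that order. The settings thus changed which regions passed more than the directions. All 7401 regions had been selected by the authors for a difference in these same libraries. Signs that stay the same are therefore no independent evidence of a direction. With each library left out in turn, an alternative added after the data were seen, all 6 passed each time, the highest adjusted limma p being 0.0407. The 2 higher regions of DNMT3A were 0.52 and 0.51 in the authors' scaling and 0.83 and 0.82 with the median of ratios.

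**Figure D4:**
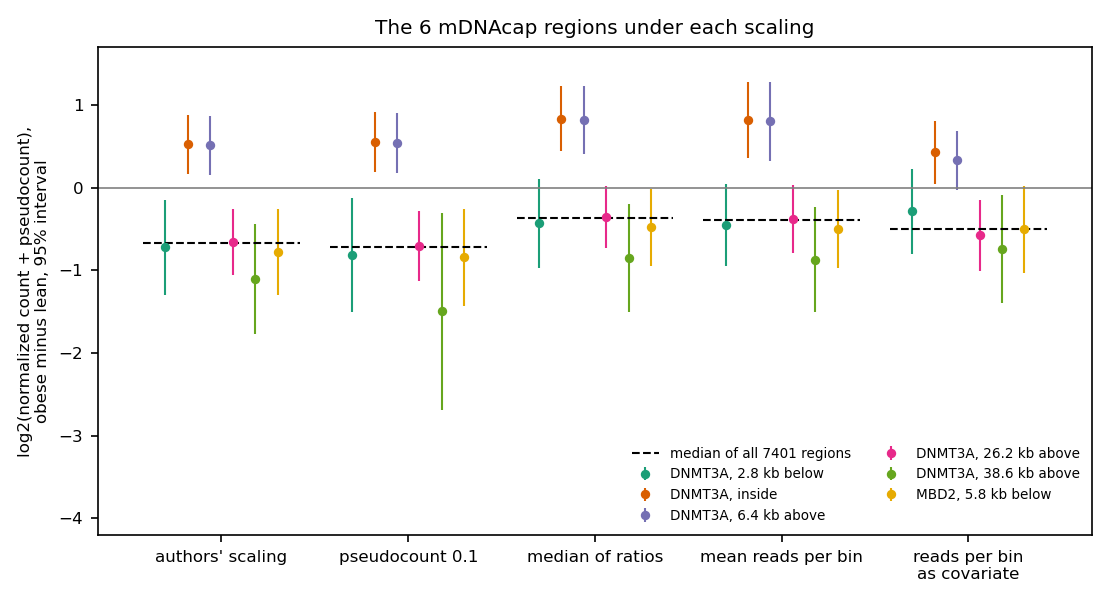
Difference between obese and lean libraries on the log2 scale at each of the 6 mDNAcap regions (coloured points, 95% intervals as lines) under the authors' scaling and 4 alternatives, with the median of all 7401 regions as a dashed line. The region inside DNMT3A and the one 6.4 kb above it stay above 0 in all 5 and the other 4 stay below 0. The dashed line moves from −0.67 to −0.37 with the median of ratios.

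RRBS regions were listed near 1 gene at the stricter setting of at least 5 pigs a group, DNMT1. This is 1 of 10 entries, beside 5.01% of all loci. The region (chr2:69384033-69384365, 10 CpGs) lay 26173 bases above the DNMT1 locus and inside the locus of S1PR2, a receptor of sphingosine-1-phosphate, 1 of 2 annotated loci on that stretch. The authors' mean methylation was 2.03% in obese and 15.8% in lean pigs. At the setting of at least 3 pigs a group, 2 of 10 entries had a region, beside 16.1% of all loci. At DNMT1 it overlapped the first one (chr2:69384042-69384164), with 1.16% in obese and 19.8% in lean pigs. At TET3 (chr3:72058434-72058525, 10 CpGs) it lay 22290 bases below the locus and inside that of MTHFD2, a mitochondrial folate enzyme, with 0.899% in obese and 17.4% in lean pigs. These are group means without values per animal, so no error is given and no test over animals was possible here. The authors listed the regions from their own comparison of these same animals, whose p-values were not used. Neither the coverage nor the number of pigs behind each is known, nor the group in which pig-411 was counted. Within the loci themselves, or 10000 bases of them, no RRBS region was listed.

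**Figure D5:**
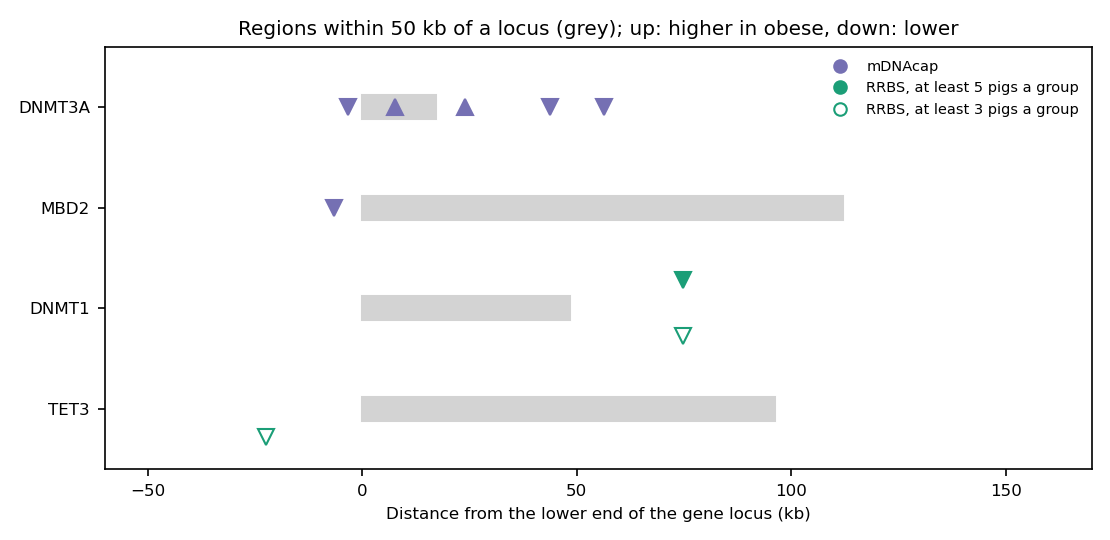
Regions within 50 kb of the 4 loci that had any, by distance from the lower end of the locus in kb, with the locus drawn to scale in grey. Purple marks mDNAcap and green RRBS (filled, at least 5 pigs a group; open, at least 3), and a triangle points up where obese pigs were higher and down where they were lower. DNMT3A carries 5 mDNAcap regions of both directions, and the RRBS regions lie outside the loci of DNMT1 and TET3.

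Over all deposited regions the assays leaned opposite ways. In mDNAcap, 5236 of 7401 regions (70.7%) were lower in obese pigs, and in RRBS 207 of 610 (33.9%) at the stricter and 941 of 2416 (38.9%) at the looser setting. At the genes described here, 4 of 6 mDNAcap regions were lower, as were the 1 and the 2 RRBS regions of the respective settings. Within 50000 bases, the assays shared no locus. Farther off, 63750 bases below DNMT3A, the looser RRBS setting listed a region with 21.5% in obese and 40.3% in lean pigs, and 76945 bases above UHRF1 the stricter one listed a region with 23.9% in obese and 11.4% in lean pigs, the direction in which RRBS leaned overall. The split of mDNAcap regions also went with their count: of regions with a mean normalized count under 20, 87.2% were lower in obese libraries, and of those with at least 20, 35.2%, a division chosen after the data were seen. The 2 higher regions of DNMT3A exceeded 72.8% and 66.5% of all regions in mean count, and the lower ones 2.15%, 18.5% and 22.0% (the MBD2 region, 55.4%).

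Set beside expression, the genes with mDNAcap regions, DNMT3A and MBD2, had RNAseq differences of 0.14 and 0.12 on the log2 scale, neither past the threshold. DNMT1, with the RRBS region in a neighbouring gene, had one of −0.057. MBD3, with the largest RNAseq difference of the 6 entries, had no region of either assay within 50000 bases. The RNAseq pigs were all male, while the methylation assays also covered females. Whether the levels of any of these genes go with the lean of either methylation assay was not tested.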

How the data were processed

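The genes, the lists of other genes and the markers were chosen with earlier results of these data known. RNAseq reads were mapped to Sscrofa10.2 with STAR 2.3.1, and the authors deposited FPKM values from cufflinks 2.2.0 with their lower and upper bounds (tools per the labels and the study's methods). The kit marked strand, while the strand setting of the counting is not given in the sources used here. The number of fragments behind each FPKM value is unknown, and 8950 to 10291 genes a library had at least 1 FPKM. For mDNAcap, the authors deposited normalized counts, reads over 1 constant a library, for regions selected with diffReps 1.55.4. For RRBS (Bismark 0.10), the authors deposited group means as a fraction of methylated reads per region from metilene, with at least 10 CpGs, here given as percent. The authors' comparison columns (fold changes, p-values, q-values) and their table of hotspots and cuffdiff results were not used.

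Each library was scaled by a median-of-ratios factor (0.691 to 1.20), and pig-572 entered as the average of its 2 libraries. On log2(scaled FPKM + 1), 10196 genes whose mean reached 1 were compared in R 4.3.3 by limma 3.58.1, with a trended eBayes step and a Benjamini-Hochberg threshold of 0.05. mDNAcap counts were tested alike over all 7401 regions. Single genes and regions also had two-sided permutation tests (exact for RNAseq, 100000 resamples for mDNAcap). Both fits were checked on simulated data. The replicates of a group are separate animals. Named in the text are all 9 genes, of each list up to 4 genes with the lowest limma p, the 2 most alike genes by Pearson's r, and regions inside a locus or within 5000 bases. A gene that the rule names is not reported here. The other regions within 50000 bases were added to these after their values were seen. Of the list genes, 7 matched no entry by name, and of the markers 10. No sequences were used here. Alternatives were other pseudocounts, filters, scalings, distances, pig-572 libraries and leaving out each pig, and, added after seeing the data, a filter on FPKM before scaling and leaving out each mDNAcap library.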

Additional observations from a re-analysis of the deposited data

Results flagged for a closer look

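In groups of 5 pigs, 74 checks on 37 entries looked for a pig far from the rest of its group by Dixon's criterion, which chance alone meets in about 1 of 20 groups, and 4 met it. MBD3 in obese pig-433 was 13.6 scaled FPKM, with the other obese pigs at 16.0 to 16.7. Without that pig the MBD3 difference was 0.83 on the log2 scale with an adjusted limma p of 0.0589. DNMT3B in lean pig-577 was 0.132, with the others at 0.0696 to 0.0803. AHCYL2 in lean pig-402 was 15.0, with the others at 6.42 to 7.98. GNMT in obese pig-433 was 2.1, with the others at 0.589 to 1.02.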

How the results depend on the processing

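No paired analysis was possible because the replicate numbers were given in accession order and pair no animals between groups. Of the members, 0 passed the adjusted threshold as reported and 1, MBD3, did with both libraries of pig-572 counted. Leaving out 1 pig at a time gave 0 to 1, the 1 being MBD3 without lean pig-402 (adjusted limma p 0.0362). Over all genes, limma called 1, against 162 so counted, 147 without pig-402, 5 with no filter and 0 on FPKM as deposited. No gene of the other lists passed in any alternative run. KMT2A turned from −0.0095 to 0.014 with both libraries of pig-572, and ranged from −0.093 to 0.071 with 1 pig left out (above 0 without obese pig-473, pig-524 or pig-529). KDM2A went from −0.034 to between −0.081 and 0.0076 (above 0 without lean pig-407 or obese pig-529).

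With 1 pig left out, 10 of the 33 differences of single genes moved by over 1.5 times at least once, such as PCNA from 0.18 to 0.062 and TRDMT1 from −0.26 to −0.10 without obese pig-529, and BAZ2A from 0.16 to 0.024 without obese pig-433.

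Of the 6 mDNAcap regions, limma called 6 with the authors' scaling or a pseudocount of 0.1, 3 with the median of ratios, 3 with the mean read count per bin and 0 with it as a covariate (3 at an unadjusted p under 0.05). Leaving out 1 library at a time gave 6 each time. Over all regions the calls were 7118, 6822, 2902, 3195 and 738 in that order. Inside the loci there was 1 mDNAcap region, with 0 lower in obese libraries, and within 10000 bases 2 were lower. RRBS listed 0 regions inside the loci or within 10000 bases, 2 within 100000 bases (1 lower), 2 with at least 3 pigs a group (2 lower) and 0 with a difference of at least 20 points.

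Limits were the unknown read depth of RNAseq and RRBS, few reads at mDNAcap regions, 1 lean-group library labelled obese, and the short TET1 entry. Cuffdiff could not be rerun on FPKM values.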
